A study of Homo sapiens with 6 samples.

Results

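The 40 genes described here encode proteins that carry cells from the G2 phase through mitosis and cytokinesis. They were chosen by gene name as known G2/M and mitosis genes, from CDK1 and its cyclins to the kinetochore, the spindle, the cleavage furrow and the proliferation marker MKI67. All 40 were found by gene name on the main chromosomes of a table of 64253 genes. The samples came from H69, an immortalised human line of cholangiocytes, which form the epithelium of the bile ducts. At passages 30 to 32 these cells were given vehicle (3 libraries) or 10 ng/ml of recombinant human TGF-beta for 16 h (3 libraries), and bulk RNA was sequenced. H69 is a single line that was transformed with the large T antigen of SV40, a viral protein known to bind the RB family and p53, and both conditions share this background. The labels do not say that the libraries of a condition came from separate cultures, and the p-values therefore reflect only the spread among these libraries, part or all of which may be technical.

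Entry into mitosis is set off when cyclin B binds CDK1 and CDC25 phosphatases remove the inhibitory phosphates that WEE1 and PKMYT1 placed on it. The spindle checkpoint then holds back the anaphase-promoting complex until every kinetochore is attached, and cytokinesis follows. Transcripts of these genes peak late in the cell cycle. Their promoters are known for a CHR element, bound by LIN54 of the MuvB complex together with the RB-like repressors in quiescent cells or with MYBL2 and FOXM1 in cycling cells, and for CCAAT boxes bound by NF-Y. TGF-beta is known as a growth inhibitor of many epithelia, in part through the CDK inhibitors CDKN2B and CDKN1A.

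RefSeq promoter windows (GRCh38.p14), which run from 250 bases before to 50 after a gene's start, were listed for 33 of the 40 genes. The other 7 were AURKA, BIRC5, BUB3, TTK, UBE2C, TPX2 and FOXM1. Each window was searched on both strands for the CHR core TTTGAA and for CCAAT, and overlapping matches were allowed. Where a gene had several windows, the window with the most matches was taken for each motif. A gene counted with both motifs may therefore hold them in different windows. The 130 bases just before the start are shown 5′ to 3′ along the strand of the gene for 9 genes, with both motifs in capitals; ATTGG is CCAAT read on the other strand. CCNB2, PLK1, PRC1, HMMR, MKI67 and KIF4A are shown because they carry both motifs close to the start. KIF20A and BUB1 are shown because their windows lacked TTTGAA although their transcripts were among the larger falls, and CENPA because it carries both motifs and its transcript was not called changed.
CCNB2: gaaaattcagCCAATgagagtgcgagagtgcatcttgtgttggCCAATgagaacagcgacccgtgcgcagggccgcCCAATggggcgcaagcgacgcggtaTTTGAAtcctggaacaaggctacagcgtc
PLK1: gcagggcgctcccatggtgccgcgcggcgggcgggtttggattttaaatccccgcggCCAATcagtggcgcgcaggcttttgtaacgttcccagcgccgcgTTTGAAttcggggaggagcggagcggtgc
PRC1: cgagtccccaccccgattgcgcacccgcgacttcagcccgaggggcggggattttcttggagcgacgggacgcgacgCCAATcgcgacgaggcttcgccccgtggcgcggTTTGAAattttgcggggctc
HMMR: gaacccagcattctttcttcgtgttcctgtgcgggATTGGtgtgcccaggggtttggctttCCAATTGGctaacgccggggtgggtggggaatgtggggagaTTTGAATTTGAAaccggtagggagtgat
MKI67: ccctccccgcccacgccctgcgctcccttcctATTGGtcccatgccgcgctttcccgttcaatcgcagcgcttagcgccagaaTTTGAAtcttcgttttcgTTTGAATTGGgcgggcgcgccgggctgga
KIF4A: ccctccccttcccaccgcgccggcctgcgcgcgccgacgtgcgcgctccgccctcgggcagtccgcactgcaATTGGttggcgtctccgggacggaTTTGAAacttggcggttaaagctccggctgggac
KIF20A: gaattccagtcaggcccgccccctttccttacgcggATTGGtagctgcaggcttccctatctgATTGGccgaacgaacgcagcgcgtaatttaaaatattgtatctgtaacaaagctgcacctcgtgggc
BUB1: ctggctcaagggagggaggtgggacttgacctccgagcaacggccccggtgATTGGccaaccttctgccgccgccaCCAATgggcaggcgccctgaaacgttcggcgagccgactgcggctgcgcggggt
CENPA: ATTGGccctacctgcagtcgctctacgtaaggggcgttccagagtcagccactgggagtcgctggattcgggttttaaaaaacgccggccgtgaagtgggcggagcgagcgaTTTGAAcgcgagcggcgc

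In GRCh38.p14 these stretches lie at chr15:59105016-59105145 (CCNB2, plus strand), chr16:23678759-23678888 (PLK1, plus), chr15:90994536-90994665 (PRC1, minus), chr5:163460502-163460631 (HMMR, plus) and chr10:128126424-128126553 (MKI67, minus). The others lie at chrX:70289974-70290103 (KIF4A, plus), chr5:138178982-138179111 (KIF20A, plus), chr2:110678064-110678193 (BUB1, minus) and chr2:26785926-26786055 (CENPA, plus). In the 7 stretches that hold TTTGAA, the copy nearest the start begins between positions -34 (KIF4A) and -18 (CENPA), where -1 is the last base before the start. HMMR holds 2 copies of TTTGAA end to end, and in its stretch CCAAT and ATTGG share letters. MKI67 also holds 2 copies, and the one nearer the start shares a letter with an ATTGG. These 9 genes and the search were chosen after the motif matches and the fold changes were known.

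TTTGAA was found in a window of 22 of the 33 listed genes (66.7%), against 4961 of all 27305 genes with a window (18.2%). CCAAT was found in 26 of 33 (78.8%) against 39.7% of all genes, at least 2 copies of it in 16 (48.5%) against 12.9%, and both motifs in 18 (54.5%) against 8.37%. Of the 22 genes with TTTGAA, 20 were called lower with TGF-beta (edgeR adjusted p under 0.05), beside 20.4% of all genes tested. The median log2 fold change of the 22 was -0.29. Of the 11 without it, 10 were called lower, and the median of the 11 was -0.33. Fold changes ran from -0.66 to -0.04 with TTTGAA and from -0.80 to -0.07 without it. All of them lay below 0, and both sets covered much the same range. A match is a description of letters and not of a bound site, and the sets were not tested against each other. Only TTTGAA was searched for, so genes without it may still hold another form of the CHR element.

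TGF-beta lowered the transcripts of 35 of the 40 genes, most of them by a modest amount, and raised none. The log2 fold change of TGF-beta against vehicle, fitted with edgeR, was below 0 for all 40 and ranged from -0.80 for CDC25B to -0.02 for FOXM1, with a median of -0.28. It was below -0.5 for 5 genes (CDC25B, ECT2, NUF2, HMMR and BUB1) and between -0.4 and -0.2 for 24. Genes were called at an adjusted p under 0.05 (edgeR's quasi-likelihood test, Benjamini-Hochberg over 20992 genes), and 31 of the 35 calls had an adjusted p under 0.01. The 5 that were not called were PLK4, AURKB, BUB3, CENPA and FOXM1. Below, counts of genes that fell or rose are counts of genes called lower or higher.

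Many other genes also changed. Of the 20992 genes tested, 20.4% were called lower and 19.7% higher, and the median log2 fold change of all genes was -0.01, with 51.6% of genes below 0. The 3 TGF-beta libraries all lay below the 3 vehicle libraries for 37 of the 40 genes and for 26.9% of all genes tested; AURKB, CENPA and FOXM1 were the exceptions. These values rest on TMM scaling, which assumes that most genes do not change. With library totals as the only scaling the median of all genes moved to -0.14, 27.0% rather than 49.2% of called genes were higher (2698 higher and 7282 lower), and all 40 members were called lower, from -0.93 to -0.15. Fold changes given here are relative to the TMM scaling. In bulk RNA, fewer cells in G2 and mitosis and less of each transcript per such cell cannot be told apart.

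**Figure D1:**
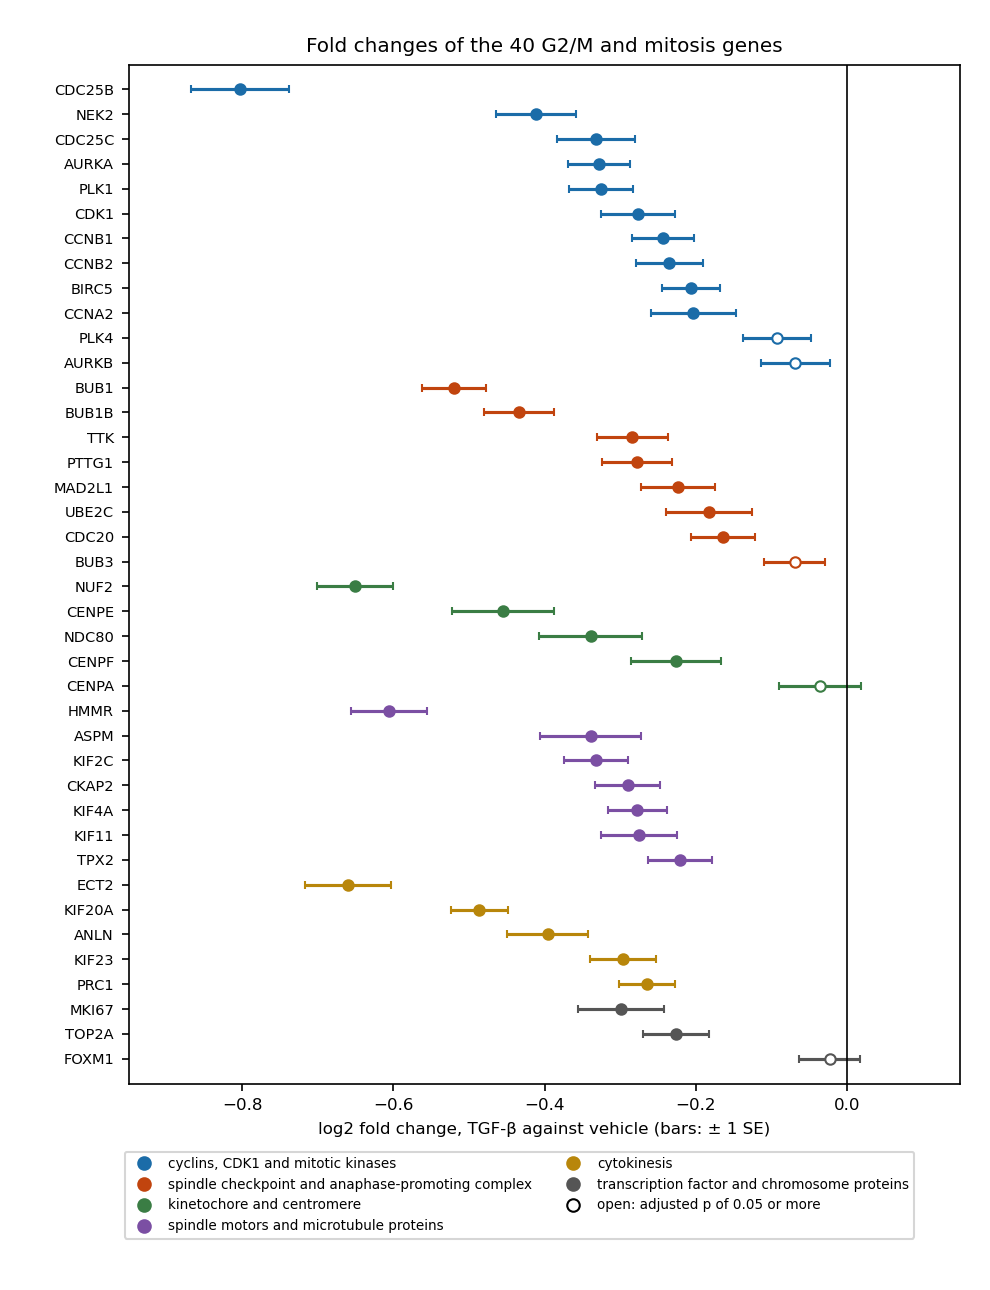
Log2 fold change of TGF-beta against vehicle for each of the 40 genes, grouped by role; points are the fitted values, bars are 1 standard error (SE) to each side, and open points were not called. All points lie left of 0, from CDC25B at -0.80 to FOXM1 at -0.02.

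As a sum, the 40 genes took 9391, 9381 and 9134 CPM (read counts scaled to library size, here by TMM) in vehicle replicates 1, 2 and 3. They took 7769, 7468 and 7381 CPM in TGF-beta replicates 1, 2 and 3. The mean was 18.9% lower with TGF-beta (9302 ± 146 against 7539 ± 203 CPM, mean ± SD, n = 3), and the highest TGF-beta library lay below the lowest vehicle library. In single libraries, all 40 genes lay below their own vehicle mean in TGF-beta replicates 1 and 2, and 39 in replicate 3, the exception being FOXM1. Total counts per library ran from 37205862 to 54160521. Vehicle replicate 1 stood apart from the other vehicle libraries on the second principal component of all genes (36.6 against -14.9 and -18.7), and without it 35 of the 40 genes were again called lower. The cholangiocyte markers KRT7, KRT19, KRT8, KRT18, EPCAM, SOX9 and SLC4A2 exceeded 1 CPM in every library, while CFTR was below 0.1 CPM. Summed fibroblast and stellate markers were 165 to 182 CPM in vehicle and 265 to 284 CPM with TGF-beta, with 3 of 6 above 1 CPM (PDGFRB, THY1 and RGS5) and LUM and DES below 0.1 CPM. Endothelial markers, of which 1 of 4 exceeded 1 CPM (KDR), summed to 19.3 to 23.8 and 10.0 to 11.5 CPM, and immune markers, with 2 of 5 (CD68 and CD14), to 15.4 to 15.7 and 11.4 to 13.1 CPM. Hepatocyte markers, with 1 of 5 (APOB), summed to 4.76 to 20.4 and 5.07 to 6.27 CPM, and ALB, APOA1 and TTR were below 0.1 CPM. The part of these markers in the results for the 40 genes was not tested.

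**Figure D2:**
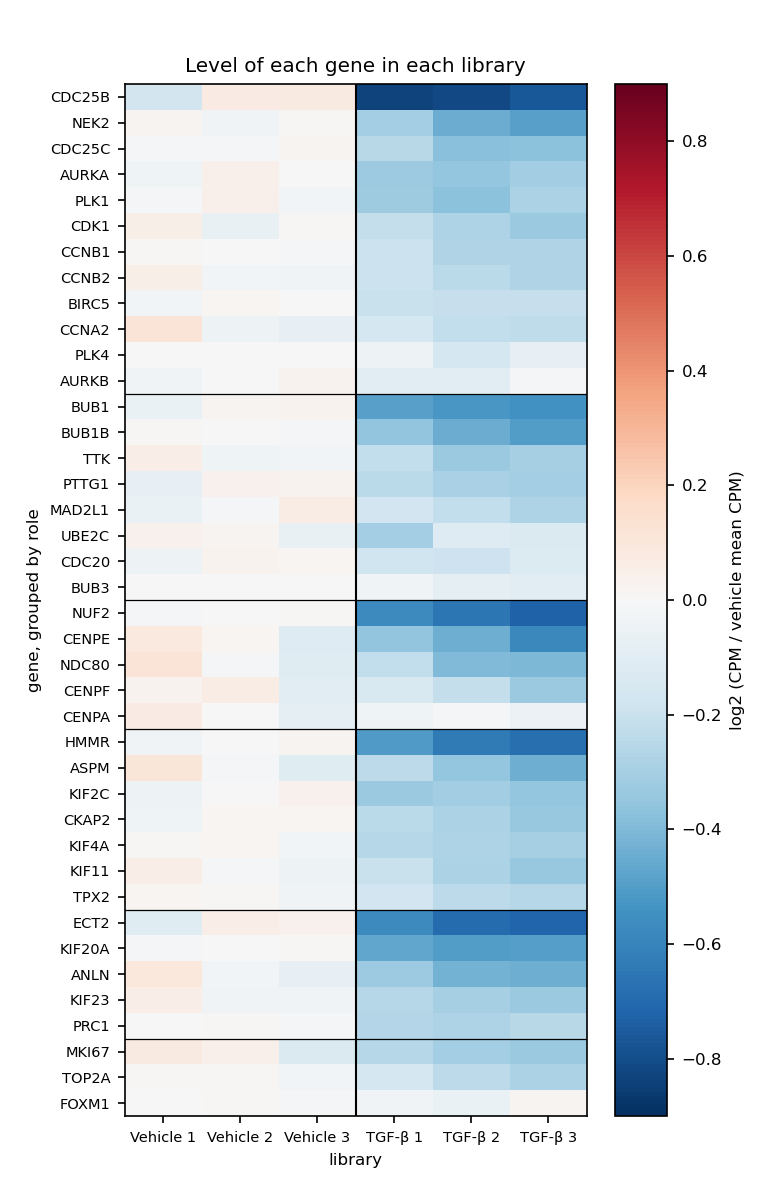
Heat map of each gene (rows, grouped by role) in each library (columns); colour gives the log2 ratio of its CPM to its vehicle mean. The TGF-beta columns are blue for nearly every gene, palest for FOXM1, CENPA, BUB3, AURKB and PLK4.

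The first role group holds CDK1, its cyclins and phosphatases, and the other mitotic kinases with BIRC5, and 10 of its 12 genes fell (median -0.26). CDC25B, a phosphatase that removes inhibitory phosphates from CDK1 at the start of mitosis (ENSG00000101224, hg38 chromosome 20, 3786772 to 3806121), fell the most. It measured 279, 330 and 330 CPM in vehicle replicates 1 to 3 and 175, 178 and 185 CPM with TGF-beta. The vehicle values spread more, relative to their mean, than those of any other member, yet the lowest of them was well above every TGF-beta value. The log2 fold change was -0.80 (SE 0.06, edgeR adjusted p = 6.63e-06), a level 42.7% lower. CDC25C, its relative that acts on CDK1 in the nucleus, measured 37.2, 37.3 and 38.3 CPM in vehicle and 31.6, 29.0 and 29.1 CPM with TGF-beta, a log2 fold change of -0.33 (SE 0.05). NEK2, a kinase that separates the centrosomes, measured 89.0, 85.9 and 88.2 CPM against 70.8, 64.5 and 62.5 CPM, a log2 fold change of -0.41 (SE 0.05). For both genes the conditions were separated by a gap wider than the spread within either.

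CDK1 itself, the kinase that drives mitosis, measured 156, 144 and 152 CPM in vehicle and 130, 124 and 119 CPM with TGF-beta (log2 fold change -0.28, SE 0.05). CCNB1, its main mitotic cyclin, measured 351, 350 and 344 CPM against 305, 289 and 290 CPM (-0.24, SE 0.04). The conditions did not overlap for either gene, and the levels were 17.4% (CDK1) and 15.5% (CCNB1) lower. CCNB2, the second B-type cyclin, fell from 150 ± 4.88 to 128 ± 3.54 CPM (mean ± SD, n = 3; -0.24, SE 0.04). CCNA2, the A-type cyclin of S and G2 phases, fell from 157 ± 11.6 to 136 ± 4.02 CPM (-0.20, adjusted p = 0.0147 by edgeR). Its call was lost when TGF-beta replicate 2 (adjusted p = 0.0741 by edgeR) or 3 (0.0675) was left out.

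Among the kinases that act on the spindle and centrosomes, PLK1 measured 191, 200 and 190 CPM in vehicle and 155, 150 and 159 CPM with TGF-beta (-0.33, SE 0.04). AURKA, the centrosomal Aurora kinase, measured 249, 264 and 256 CPM against 205, 202 and 206 CPM (-0.33, SE 0.04). They were 20.2% and 20.3% lower, with no overlap between conditions. BIRC5 (survivin), a subunit of the chromosomal passenger complex, measured 222, 229 and 226 CPM against 196, 195 and 195 CPM and fell (-0.21, SE 0.04). AURKB, the kinase of that complex, measured 60.9, 62.1 and 63.7 CPM against 58.1, 58.2 and 61.9 CPM, and the conditions overlapped. Its log2 fold change was -0.07, with an interval of 2 SE to each side from -0.16 to 0.02. PLK4, which starts centriole duplication, measured 65.6, 65.5 and 65.2 CPM against 63.3, 58.8 and 62.1 CPM. All its TGF-beta values lay below the vehicle values, but the log2 fold change of -0.09 was not called (adjusted p = 0.13 by edgeR). The interval of 2 SE for PLK4 ran from -0.18 to -0.002 and so lay just below 0, while its p-value before adjustment was 0.0663 (edgeR).

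**Figure D3:**
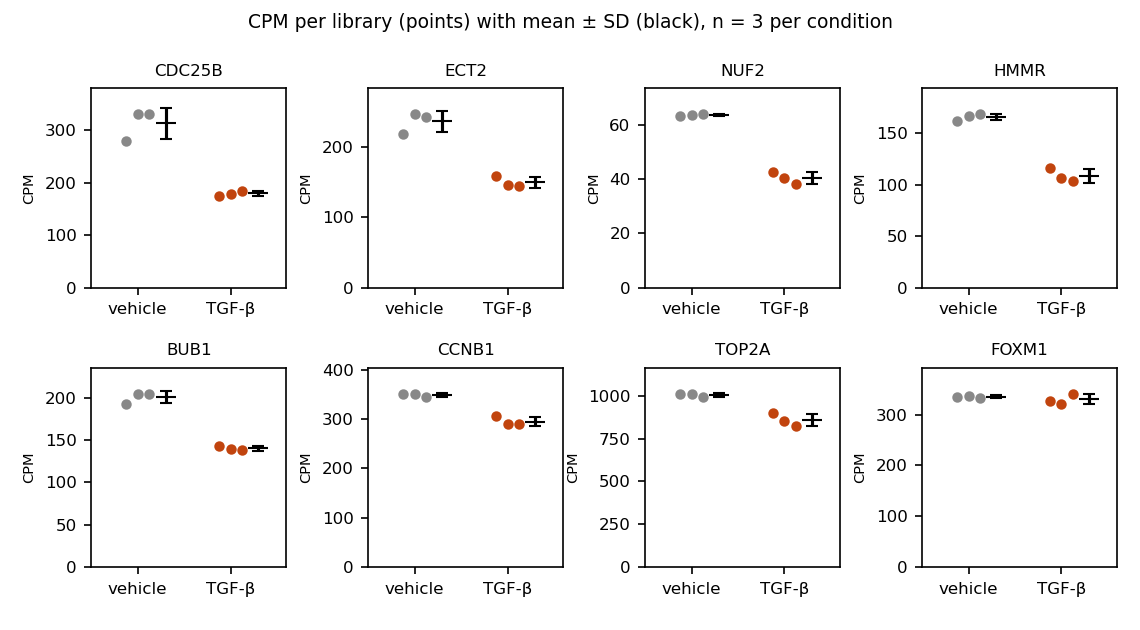
CPM of 8 genes in each library (points) with the mean and SD of the 3 libraries per condition (black bars); each axis starts at 0. CDC25B, ECT2, NUF2, HMMR and BUB1 had the largest falls, CCNB1 and TOP2A smaller ones, and for FOXM1 the conditions overlap.

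Of the 8 genes of the spindle checkpoint and of exit from mitosis, 7 fell (median -0.25), with BUB1 and BUB1B leading. BUB1, which recruits checkpoint proteins to unattached kinetochores (ENSG00000169679, chromosome 2, 110637698 to 110678114), measured 193, 204 and 205 CPM in vehicle and 143, 139 and 138 CPM with TGF-beta. Its level was 30.3% lower (log2 fold change -0.52, SE 0.04, edgeR adjusted p = 5.48e-06). BUB1B (BubR1), part of the complex that inhibits CDC20, measured 202, 201 and 198 CPM against 157, 147 and 142 CPM (-0.43, SE 0.05). TTK (MPS1), the kinase at the top of the checkpoint, measured 105, 98.7 and 99.3 CPM against 86.6, 80.3 and 82.2 CPM (-0.28, SE 0.05). In each of these the conditions were fully separated.

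MAD2L1, the checkpoint protein that binds CDC20, fell from 84.9 ± 3.64 to 72.7 ± 2.65 CPM (-0.22). PTTG1 (securin), which guards separase until anaphase, fell from 103 ± 4.51 to 84.6 ± 1.85 CPM (-0.28). The 2 genes of this group that help the anaphase-promoting complex to act had smaller falls. CDC20, its activator, fell by 0.16 on the log2 scale, the smallest fall called among the 40 genes, from 146 ± 3.93 to 131 ± 3.07 CPM. UBE2C, its ubiquitin-conjugating enzyme, fell from 139 ± 5.46 to 123 ± 8.73 CPM (-0.18). Neither call held in every fit with a library left out, though the fold changes stayed below 0. The call of CDC20 was lost without vehicle replicate 2 (log2 fold change -0.15, adjusted p = 0.0551 by edgeR) or TGF-beta replicate 2 (-0.15, 0.0657). The call of UBE2C was lost without vehicle replicate 2 (-0.17, 0.0917) or TGF-beta replicate 1 (-0.12, 0.0983). BUB3, the adaptor that carries BUB1 and BUB1B to kinetochores, measured 190, 191 and 191 CPM against 187, 180 and 178 CPM. Its values did not overlap, and the log2 fold change of -0.07 (interval of 2 SE from -0.15 to 0.01) was not called.

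At the kinetochore and centromere 4 of 5 genes fell, with a median of -0.34. NUF2 and NDC80 encode partner subunits of the complex that grips microtubules. NUF2 (ENSG00000143228, chromosome 1, 163266576 to 163355764) measured 63.3, 63.6 and 64.0 CPM in vehicle and 42.8, 40.5 and 38.3 CPM with TGF-beta, so that the vehicle values nearly coincided and every TGF-beta value lay far below them. The mean was 36.3% lower, the log2 fold change was -0.65 (SE 0.05), and the adjusted p of 3.49e-06 (edgeR) was the smallest among the 40 genes. NDC80 measured 133, 122 and 114 CPM against 105, 93.1 and 92.9 CPM, a smaller log2 fold change of -0.34 with a wider error (SE 0.07). CENPE, a kinetochore motor that moves chromosomes to the spindle equator, measured 137, 131 and 119 CPM against 101, 95.1 and 86.3 CPM (-0.46, SE 0.07). For NDC80 and CENPE the conditions did not overlap, though the vehicle values were spread widely.

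CENPF, a large protein of the outer kinetochore, fell from 416 ± 25.6 to 356 ± 23.7 CPM (-0.23, adjusted p = 0.0127 by edgeR). The call was lost without vehicle replicate 2 (adjusted p = 0.0599 by edgeR), TGF-beta replicate 2 (0.0514) or TGF-beta replicate 3 (0.0672). CENPA, the histone variant that marks centromeres, measured 32.9, 31.4 and 29.6 CPM against 30.4, 30.9 and 30.2 CPM. All its TGF-beta values fell inside the range of the vehicle values, and the log2 fold change was -0.04 (interval of 2 SE from -0.14 to 0.07).

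All 7 genes of spindle motors and microtubule proteins fell, with a median of -0.29. HMMR, which helps to organise spindle poles (ENSG00000072571, chromosome 5, 163460203 to 163491945), measured 162, 166 and 168 CPM in vehicle and 116, 107 and 103 CPM with TGF-beta (-0.61, SE 0.05, edgeR adjusted p = 6.47e-06). ASPM, a spindle pole protein known from inherited microcephaly, measured 223, 204 and 192 CPM against 176, 162 and 152 CPM (-0.34, SE 0.07). KIF2C (MCAK), a kinesin that takes microtubules apart at kinetochores, measured 113, 117 and 120 CPM against 92.7, 94.2 and 92.0 CPM (-0.33, SE 0.04). The fall of HMMR was 34.3%, beside 20.9% for ASPM and 20.6% for KIF2C, and none of the 3 overlapped between conditions. The other 4 had falls between 0.22 and 0.29 on the log2 scale: CKAP2 at -0.29, KIF4A at -0.28, KIF11 at -0.28 and TPX2 at -0.22. CKAP2 stabilises microtubules, KIF4A is a chromosome-bound kinesin, KIF11 (Eg5) pushes the spindle poles apart, and TPX2 activates AURKA on the spindle.

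All 5 cytokinesis genes fell, and their median of -0.40 was lower than that of any other role group. These differences between role groups were not tested. ECT2, the exchange factor that switches on RhoA at the division plane (ENSG00000114346, chromosome 3, 172750682 to 172821474), measured 219, 246 and 243 CPM in vehicle and 158, 146 and 144 CPM with TGF-beta. Its level was 36.7% lower (log2 fold change -0.66, SE 0.06, edgeR adjusted p = 8.62e-06). KIF20A, a kinesin of the central spindle, measured 256, 260 and 261 CPM against 188, 183 and 184 CPM (-0.49, SE 0.04). The values of KIF20A hardly varied within a condition. ANLN (anillin), the scaffold of the contractile ring, measured 829, 765 and 736 CPM against 620, 579 and 572 CPM (-0.40, SE 0.05). KIF23, the kinesin of the centralspindlin complex that recruits ECT2, fell from 243 ± 9.09 to 198 ± 5.57 CPM (-0.30). PRC1, which bundles the microtubules of the central spindle, fell from 389 ± 2.64 to 324 ± 3.17 CPM (-0.26).

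The last group holds a transcription factor and chromosome proteins that are used as marks of proliferation. MKI67, the gene of the Ki-67 antigen, measured 505, 492 and 436 CPM in vehicle and 400, 387 and 379 CPM with TGF-beta (-0.30, SE 0.06, edgeR adjusted p = 0.00193). TOP2A, the topoisomerase that untangles sister chromatids, measured 1010, 1013 and 990 CPM against 899, 852 and 826 CPM (-0.23, SE 0.04). Neither gene's values overlapped between conditions, and the levels were 18.7% and 14.5% lower. FOXM1, which activates many late cell cycle genes (ENSG00000111206, chromosome 12, 2857681 to 2877040), measured 336, 338 and 333 CPM against 328, 322 and 342 CPM. TGF-beta replicate 3 was the highest of all 6 libraries. The log2 fold change of FOXM1, -0.02 (SE 0.04, interval of 2 SE from -0.10 to 0.06; edgeR adjusted p = 0.693), was the smallest in size of the 40, while FOXM1, PLK4, AURKB and BUB3 were called lower with library totals and in fits of RPKM, and CENPA only with library totals.

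Per length, the 40 genes were well expressed. Mean RPKM (reads scaled to gene length and library size) in vehicle ran from 5.41 (CDC25C) to 68.5 (TOP2A), with a median of 17.3, and the lowest member was above 78.3% of all genes tested. After TOP2A came TPX2 (63.3 ± 1.05 RPKM, mean ± SD, n = 3), CCNB1 (59.8 ± 0.578), ANLN (56.7 ± 3.45) and UBE2C (47.5 ± 1.73). At the other end stood CENPE (5.99 ± 0.410 RPKM), PLK4 (6.40 ± 0.0298), MAD2L1 (6.48 ± 0.292) and CENPA (6.92 ± 0.354). PLK4 and MAD2L1 did not differ beyond their spread. The smallest count of any member in any library was 1087 reads. The genes with the largest falls ran from 8.30 RPKM (NUF2) to 31.8 RPKM (CDC25B), and those not called ran from 6.40 (PLK4) to 30.8 (FOXM1).

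**Figure D4:**
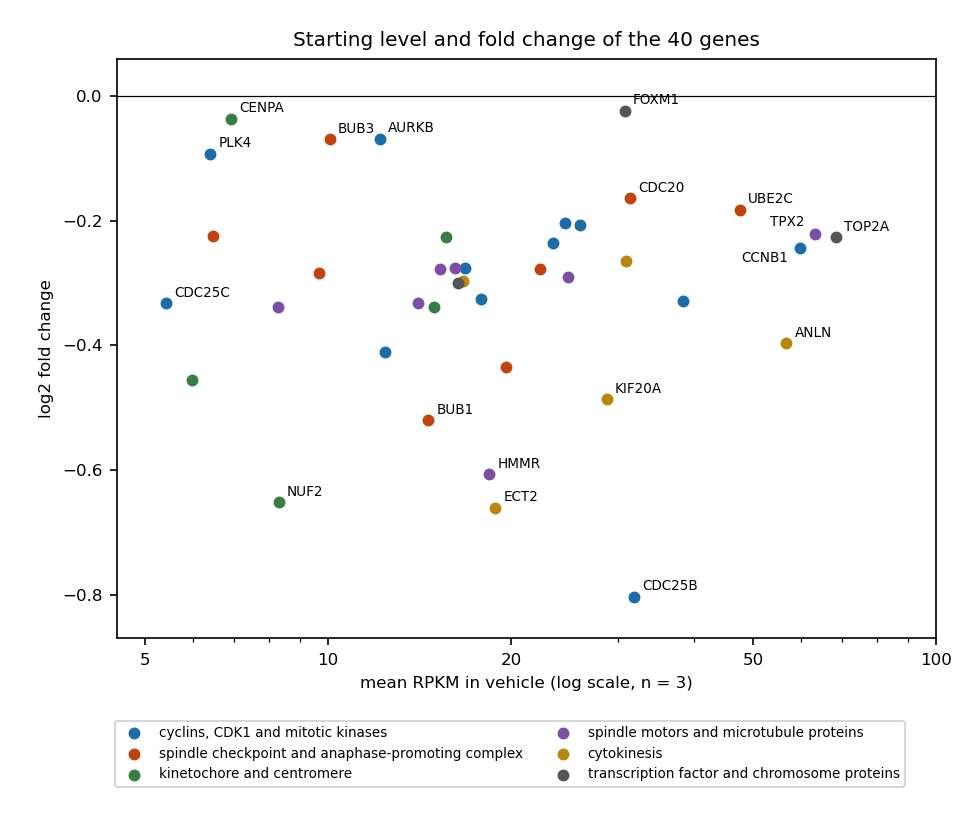
Mean vehicle RPKM (horizontal, log scale, n = 3) against log2 fold change for the 40 genes, coloured by role. Neither the highest (TOP2A, 68.5) nor the lowest level (CDC25C, 5.41) went with the largest fall, which was that of CDC25B at 31.8 RPKM.

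Some reads could belong to other genes. The table holds 15 named copies of members, pseudogenes and retrogenes such as KIF4B, and the largest of them had 0.701% of its member's counts. In 8 members another tested gene overlaps at 10% or more of the member's CPM: CCNA2, CDC25C, BUB1B, CENPA, KIF4A, KIF20A, PRC1 and FOXM1. Of these 6 were called lower, and 29 of the other 32 were. For CDC25C and CENPA the neighbour was the more abundant: FAM53C held 238% of the level of CDC25C and SLC35F6 held 158% of that of CENPA. FAM53C was called lower (log2 fold change -0.13) and SLC35F6 higher (0.15). PRC1-AS1, which runs antisense to PRC1, had a log2 fold change of -0.28 beside -0.26 for PRC1. PAK6 (overlapping BUB1B, -0.62), BRD8 (KIF20A, -0.37) and RHNO1 (FOXM1, -0.335) were also called lower. EXOSC9 (CCNA2), PDZD11 (KIF4A), CDC23 (KIF20A) and ITFG2 (FOXM1) were not called. The part of these genes in the members' values was not tested. The sources used here do not say whether the counting used strand, so reads of such a pair cannot be told apart.

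Genes of the same pathway outside the 40 were counted in the same fit. Of 64 other G2/M and mitosis genes, 42 were called lower and 1 higher. Their median log2 fold change was -0.21, and 56 of the 64 lay below 0. PBK, a mitotic kinase, had the largest fall, from 126 ± 8.01 to 83.8 ± 4.0 CPM (-0.59, SE 0.06). CENPW, a centromere protein, was the one called higher (0.20, from 31.6 ± 0.947 to 36.3 ± 2.90 CPM). Its call was lost with library totals (0.07) and in both RPKM fits. It was also lost without vehicle replicate 2 (adjusted p = 0.108 by edgeR) or TGF-beta replicate 1 (0.114) or 2 (0.0963). TTTGAA was in the promoter windows of 66.0% of the 53 of these genes listed, beside 66.7% of the 33 members listed.

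Of 23 transcriptional regulators of these promoters, 6 fell and 4 rose (median -0.03). These shares, 26.1% lower and 17.4% higher, were near those of all genes tested (20.4% and 19.7%). MYBL2, the MuvB partner that activates G2/M genes, rose from 286 ± 12.3 to 362 ± 9.79 CPM (0.34, SE 0.05). E2F2, an activating E2F, fell from 18.1 ± 1.59 to 8.62 ± 0.268 CPM (-1.07, SE 0.08). The other rises were in E2F4, a largely repressive E2F (0.33, SE 0.06), E2F3 (0.19) and E2F7 (0.16), and the calls of E2F3 and E2F7 were lost with library totals and in both RPKM fits. That of E2F3 was also lost without TGF-beta replicate 1 (adjusted p = 0.0513 by edgeR) or 2 (0.0749), and that of E2F7 without vehicle replicate 3 (0.0654) or TGF-beta replicate 2 (0.0674) or 3 (0.0593).

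A further list of 27 genes, called brakes and complex parts here, held brakes of CDK1 and parts of the anaphase-promoting complex. It also held other regulators, among them CDC25A, MASTL, ENSA, ARPP19 and CDKN2B, which are neither. In this list 6 genes fell and 5 rose (median -0.02). At 22.2% lower and 18.5% higher, this list too was near all genes tested. CDKN2B (p15), an inhibitor of G1 phase CDKs and a classical TGF-beta target, measured 68.1, 83.9 and 80.1 CPM in vehicle and 330, 328 and 334 CPM with TGF-beta, a log2 fold change of 2.10 (SE 0.07). CDKN1A (p21), a broader CDK inhibitor, rose from 218 ± 28.5 to 378 ± 23.9 CPM (0.79, SE 0.10). CDKN1B (p27), of the same family, fell from 128 ± 8.34 to 88.5 ± 2.61 CPM (-0.54, SE 0.05). The other rises were UBE2D1 (0.38), CDC26 (0.27) and WEE1, the kinase that holds CDK1 inactive (0.15), and all 3 lost their call with library totals, UBE2D1 and WEE1 also in both RPKM fits, and WEE1 with DESeq2 and with no filter. None of these 3 calls held in every fit with a library left out, though the fold changes stayed above 0. The call of UBE2D1 was lost without TGF-beta replicate 2 (log2 fold change 0.32, adjusted p = 0.0549 by edgeR). That of CDC26 was lost without vehicle replicate 2 (0.23, 0.0657) or TGF-beta replicate 3 (0.24, 0.0603). WEE1 lost its call on leaving out vehicle library 2 (0.14, 0.127) or 3 (0.16, 0.0767). It was likewise lost on leaving out TGF-beta library 1 (0.12, 0.125) or 2 (0.16, 0.105).

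In the 42 genes of G1/S and DNA replication 13 fell and 3 rose, with a median of -0.09. RRM2, a ribonucleotide reductase subunit, had the largest fall called, from 339 ± 23.2 to 260 ± 2.99 CPM (-0.38, SE 0.05). CCNE1, the cyclin of S phase entry, rose from 14.5 ± 0.826 to 19.7 ± 0.725 CPM (0.45, SE 0.07), and UHRF1 (0.30) and CDC6 (0.27) rose as well. TTTGAA was in the promoter windows of 2.78% of the 36 of these genes listed, and CCAAT in 61.1%. The 13 calls became 6 without TGF-beta replicate 2 or 3, 8 without replicate 1, and 31 with library totals. The share called lower was 31.0% here, 22.2% in the brakes and complex parts, 26.1% in the regulators, 65.6% in the other G2/M genes and 87.5% in the 40 members, beside 20.4% of all genes tested; differences between these lists were not tested.

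**Figure D5:**
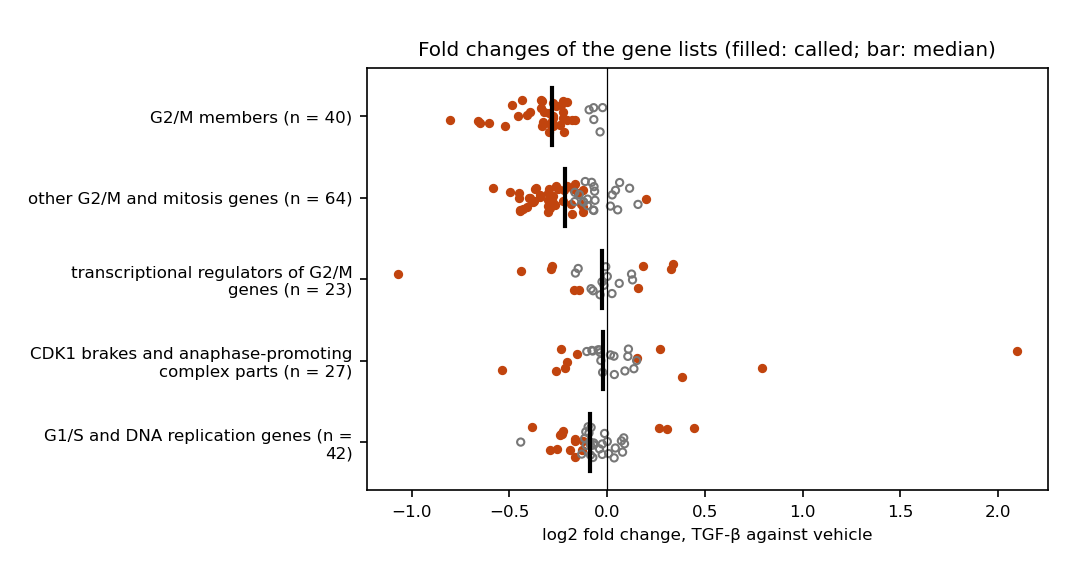
Log2 fold change of every gene (points) in the 40 members and the 4 other lists; filled points were called, open ones were not, and black bars are medians. The medians are -0.28 for the members and -0.21, -0.03, -0.02 and -0.09 for the other lists from top to bottom.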

How the data were processed

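RNA of 6 H69 libraries was analysed, grouped by the treatment in the labels. Per the submitters' processing notes, bcl2fastq, STAR 2.6.1, Subread and featureCounts were used with genome build hg38. The strand setting, handling of multi-mapped reads and annotation release are not given in the sources used here. The count columns hold raw reads per gene as the authors deposited them, and the RPKM columns hold RPKM made by the authors, per the file headers.

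Differences were tested with edgeR 4.0.16 in R 4.3.3 (TMM, filterByExpr with a minimum count of 10, robust quasi-likelihood test, no replicate block), with Benjamini-Hochberg adjustment over the 20992 genes kept. All 40 members passed this filter. CPM use TMM scaling. The SE was taken as the absolute log2 fold change over the root of the F statistic. RPKM served for levels per length and, as log2(RPKM + 1) and log2(RPKM + 0.1) computed from the deposited values, in alternatives with limma 3.58.1 where mean RPKM reached 0.5. DESeq2 1.42.0 was a further alternative. The edgeR fit was also run on simulated counts in which 200 genes were changed by known folds. Far more genes were called in the real data, so that run is no check of the TMM assumption. Totals of 37205862 to 54160521 counts make 1 CPM worth 35.7 to 56.2 reads.

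The members, lists and tests were chosen with earlier results of these data known. All members are named. Values per library are given for up to 3 called genes with the largest change in each role group and for MKI67, TOP2A, CDK1, CCNB1, PLK1, AURKA, BIRC5 and FOXM1, and also for the members not called. Of each other list the largest called rise and fall are named. E2F4, E2F3, E2F7, CDKN1A, UBE2D1, CDC26, WEE1, UHRF1 and CDC6 and the overlapping genes were named after their values were seen. Some marker results are not reported here.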

Additional observations from a re-analysis of the deposited data

How the results depend on the processing

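Of the 35 members called lower, 31 were called lower under all 14 alternatives; CCNA2, CDC20, UBE2C and CENPF each lost the call when a single library was left out, and no called member changed direction. Leaving out each library in turn gave 32 to 35 members called lower and a median from -0.31 to -0.27. The median of the members moved to -0.41 with library totals, to -0.34 with log2(RPKM + 1) and to -0.36 with log2(RPKM + 0.1). CENPA, not called, had values from -0.074 to 4.7e-05 with a library left out, the latter without vehicle replicate 1 and the only change of sign among members. With library totals 7282 genes were lower and 2698 higher; higher genes numbered 2406 and 2402 in the 2 RPKM fits. Other G2/M genes called higher numbered 0 with library totals and in both RPKM fits, 2 with no filter, and 0 to 5 with a library left out (5 without vehicle replicate 1). Regulators called lower numbered 12 with library totals and 10 in each RPKM fit; regulators called higher numbered 2 in those 3 fits and 2 to 5 with a library left out (2 without TGF-beta replicate 2). Of the brakes and complex parts, 13 were lower and 2 higher with library totals, 3 higher in each RPKM fit, and 3 to 8 higher with a library left out (8 without vehicle replicate 1). G1/S genes called lower numbered 31 with library totals, 25 in each RPKM fit and 6 to 16 with a library left out; those called higher 3 to 5 (5 without vehicle replicate 1). Neither library totals nor the 2 RPKM fits applied TMM scaling, so they are not separate checks of it. The causes of these shifts were not tested. Replicate numbers did not pair the libraries: deviations from the group means correlated at 0.01 to 0.07 between same-numbered and -0.07 to 0.01 between differently numbered libraries, and the fit with the replicate block called the same 35 members lower, with a median of -0.28. All members had at least 1087 reads in every library.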

Other observations

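Within a condition the 40 genes varied little, with a median coefficient of variation of 2.98% in vehicle and 3.24% with TGF-beta. The widest spreads in vehicle were those of CDC25B (9.49%), NDC80 (7.8%), MKI67 (7.66%), ASPM (7.62%), CCNA2 (7.4%) and CENPE (7.01%). TGF-beta replicate 1 was the highest of its condition for 30 of the 40 genes and TGF-beta replicate 3 the lowest for 26. The median log2 ratio to the vehicle mean was -0.24, -0.29 and -0.32 in TGF-beta replicates 1, 2 and 3, against 0.01, 0.01 and -0.01 in the vehicle replicates. Several partners of members in the list of other genes also fell: RACGAP1, which forms centralspindlin with KIF23, had a log2 fold change of -0.45 (SE 0.04), and INCENP and CDCA8, which hold AURKB in the passenger complex, had -0.28 (SE 0.04) and -0.36 (SE 0.04). These 3 genes were named after their values were seen.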
